A study of Mus musculus with 12 samples.

Results

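Embryoid bodies of a knockout line after 16 days were set beside wild type embryoid bodies after 8 days, to ask whether the knockout line at the later day looked like a wild type culture running late. The libraries were chosen by line and day alone: 2 of the line labelled WT+1343KO-a14 at day 16 (called 1343KO here) and 2 of the line labelled WT at day 8, which makes 4 of the 12 libraries in the table. Both lines are mouse embryonic stem (ES) cells, and poly(A) RNA was sequenced from ES cells kept in serum with leukaemia inhibitory factor (day 0) and from floating aggregates grown without that factor for 8 or 16 days. Each of the 6 groups of line and day had 2 libraries. The study knocked out long noncoding RNAs with CRISPR-Cas9, and its title names the small nucleolar RNA SNORA73 in connection with leaving pluripotency. The labels give no allele beyond the line's name, and they name a single 1343KO line, a14, so an effect of the knockout and a trait of that line cannot be told apart.

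ES cells stay pluripotent through a network of transcription factors around Pou5f1 (Oct4), Sox2 and Nanog, which is taken down when leukaemia inhibitory factor is withdrawn. Cells then pass through a formative state like that of the early epiblast and a primitive streak state, in which Nodal, BMP, Wnt and FGF signals assign them to mesoderm and endoderm. Embryoid bodies usually go on to form a yolk sac like mix of visceral endoderm, which secretes plasma proteins, with blood islands, endothelium, heart muscle and fibroblasts.

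Levels are given as FPKM, fragments scaled for transcript length and for library size, with 1 value for each library. Values joined by "against" give the 2 WT day 8 libraries first and the 2 1343KO day 16 libraries second. Differences are 1343KO day 16 minus WT day 8 on the log2(FPKM + 1) scale with their standard error, so 1 unit is about 2-fold in well expressed genes and understates the change of low ones. A gene was called at an adjusted p under 0.05 from limma over the 16289 genes tested. A difference printed without a p was called. In every called gene named here the libraries of the 2 groups do not overlap, which also held for 69.8% of all tested genes. The lowest values gave a depth of about 7650000 and 6270000 fragments in WT day 8 and 5880000 and 6160000 in 1343KO day 16, and mitochondrial genes took 8.36% to 9.52% of the FPKM in these 4 libraries. Nothing in the labels says that the 2 libraries of a group came from separate cultures, so the p-values measure only how these libraries vary, and that variation may be technical.

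In all, 6706 of 16289 genes (41.2%) were called between the 2 groups, 3896 higher in 1343KO (23.9%) and 2810 lower (17.3%), and the median over all tested genes was 0.09. The share of calls in the higher direction was 58.1%, against 48.5% after median-of-ratios scaling and 46.8% after TPM scaling, so the balance of directions rests on the scaling. At least 2-fold, 1464 genes were higher and 1218 lower. With 2 libraries against 2 an exact permutation test of a single gene cannot go below p = 0.333, and the limma calls draw on a variance shared across groups and genes.

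The lines already differed on day 0, where 604 genes were called (3.71%), 259 higher (1.59%) and 345 lower (2.12%) in 1343KO. Snhg3, the host gene whose span (chr4:132348014-132353686, GRCm38) holds the genes of Snora73a and Snora73b, read 13.7 and 30.2 in WT day 8 and was listed at 0 in both 1343KO day 16 libraries. The snoRNAs themselves are not reliably measured in poly(A) libraries and were not tested. Rcc1, which overlaps this span, read 17.9 and 26.2 against 33.7 and 33.0 (0.60 ± 0.15). Its call is lost in the fit on the 4 compared libraries alone (adjusted p = 0.106) and without 1343KO day 16 replicate 1 (adjusted p = 0.0521). Eif2s3y, a translation factor gene of the Y chromosome, read 23.2 and 20.6 against 0.520 and 0.198 and was low in 1343KO on day 0 too, 0.435 and 1.28. Genes of chromosome 8 had a median difference of -0.42 from the remaining genes (mean level of at least 20 FPKM), the same as on day 0, while the other 19 chromosomes lay between -0.10 and 0.09.

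To set these starting differences aside, the count of each gene list is also given for the baseline-adjusted change, the change of 1343KO from day 0 to day 16 less the change of WT from day 0 to day 8. By this measure 4267 genes were called (26.2%), 2504 higher (15.4%) and 1763 lower (10.8%), and the chromosome 8 median was 0.01. The share of these calls in the higher direction was 58.7%, against 48.1% after median-of-ratios scaling and 47.8% after TPM scaling. This balance of directions thus rests on the scaling too. Among the genes named below with a called difference, Bmp6, Cfc1, Foxa2, Gata4, Gsc and Pecam1 were not called by this measure, and Col4a2 was called in the other direction.

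1343KO at day 16 resembled its own day 8 most. Across tested genes its libraries correlated at 0.965 with 1343KO day 8 (mean over pairs of libraries), 0.934 with 1343KO day 0, 0.930 with WT day 0, 0.892 with WT day 8 and 0.827 with WT day 16, against 0.971 between its own 2 libraries. These are values across genes, which are not independent replicates. From day 8 to day 16 only 131 genes changed in 1343KO (0.804%), while 4495 changed in WT over the same days (27.6%). Between the lines on day 8 itself 6973 genes were called (42.8%), 3788 higher (23.3%) and 3185 lower (19.6%) in 1343KO, a comparison that shares the WT day 8 libraries.

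WT changed 8352 genes from day 0 to day 8 (51.3%) and 1343KO changed 4368 from day 0 to day 16 (26.8%), in comparisons that share no library. Called in both and in the same direction were 3091 genes, which is 37.0% of the WT calls and 70.8% of the 1343KO calls. Another 203 were called in opposite directions, of which 163 rose in 1343KO and fell in WT. For 4274 genes that changed at least 2-fold in WT by day 8, the change in 1343KO was divided by the WT change, so that 1 is the whole WT change and 0 none of it. The median of this share was 0.35, with 0.41 for the 2476 genes that rose in WT and 0.29 for the 1798 that fell. A share of at least 0.75 was found for 534 genes (12.5%), and a share below 0, a move in the other direction, for 516 (12.1%). The shares carry no test. From day 0 to day 16 in 1343KO, 18.2% of tested genes were called higher and 8.6% lower, with a median of 0.11 over all tested genes. How far the splits by direction given here rest on the scaling was not tested. The 2 libraries of 1343KO day 16 gave medians of 0.356 and 0.359, and the mean of the 1343KO day 8 libraries gave 0.299.

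**Figure D1:**
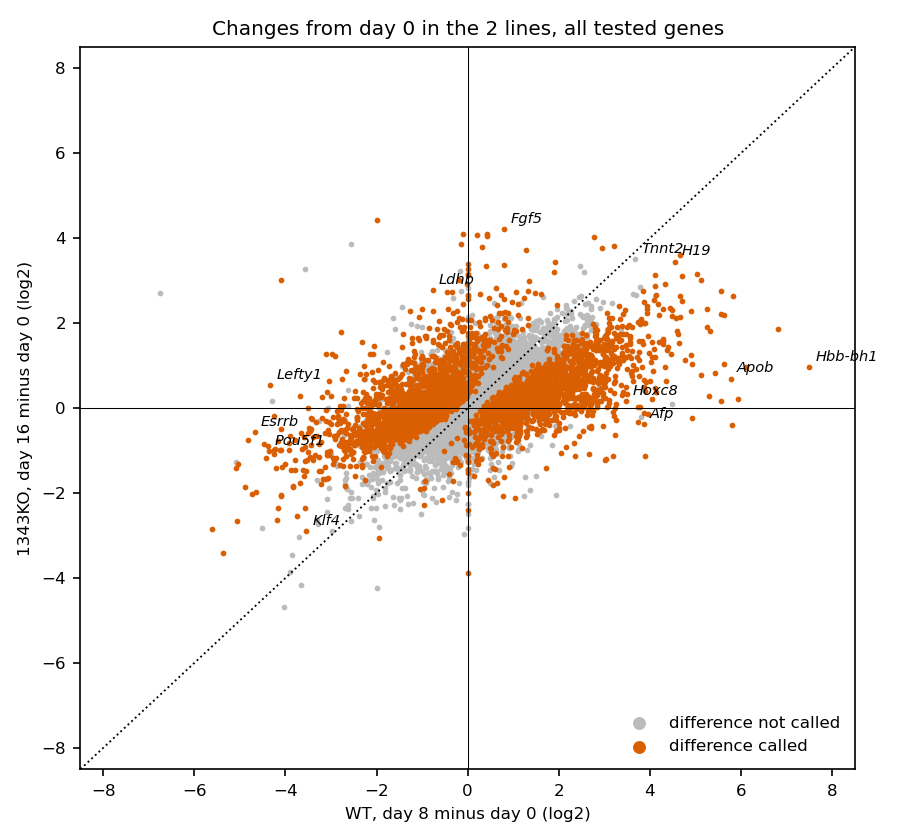
Change from day 0 to day 8 in WT (horizontal) against change from day 0 to day 16 in 1343KO (vertical), both as differences in log2(FPKM + 1), 1 point for each of the 16289 tested genes. Orange points are the 4267 genes called in the baseline-adjusted comparison, and the dotted line marks equal changes. Among genes with a WT change of at least 2-fold the median share was 0.35.

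The plasma proteins that visceral endoderm and liver secrete were among the lowest genes in 1343KO. Of 15 tested, 14 were lower in 1343KO day 16 and none was higher, with a median of -3.83, and the same 14 were lower after adjusting for day 0. Apom, an apolipoprotein of high density lipoprotein (ENSMUSG00000024391, chr17:35128997-35132050, GRCm38), read 149 and 185 against 1.79 and 1.1 (-6.12 ± 0.19, adjusted p = 8.13e-08). Apoc2, the cofactor of lipoprotein lipase, read 233 and 244 against 2.37 and 3.52 (-5.94 ± 0.22). Apob, the structural protein of lipoprotein particles, read 269.9 and 269 against 7.89 and 5.64 (-5.14 ± 0.14). All 3 were high in both WT libraries and near the ES cell level in both 1343KO libraries, and all 3 had fallen in 1343KO since day 8, Apob from 13.8 and 14.1. In bulk RNA, fewer cells of a type and less RNA per cell cannot be told apart.

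Rbp4, the retinol carrier, read 831 and 833 against 17.7 and 21.7 (-5.34 ± 0.16). Afp, alpha-fetoprotein, the main serum protein of the fetus, read 631 and 659 against 43.1 and 29.5 (-4.14 ± 0.21, adjusted p = 1.15e-06). WT went on to 8246 and 8139 by day 16, so both 1343KO libraries lay far under both WT days. Apoe, which many cell types make, read 2749 and 2867 against 598 and 628 (-2.19 ± 0.07) and had the largest share of its WT change among the 14, 0.38. The summed level of the list was 5540 to 5770 in WT day 8, 715 to 730 in 1343KO day 16 and 361 to 365 in 1343KO day 0.

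Of the 13 plasma protein genes with a promoter in the RefSeq table (GRCm38.p6), 5 held GTTAAT, a core of the sites bound by the liver factor HNF1, on either strand within 250 bases before the start, against 6.43% of all 32851 promoters. A gene was counted if any of its promoters matched, whereas the share over all promoters counts each promoter, so the units differ. The HNF4 core CAAAGTCCA, also searched, was in 0 of the 13, against 0.384% of all promoters. Those of Afp and of Fgb, the fibrinogen beta chain, are shown because neither gene was called changed from day 0 to day 16 in 1343KO. Fgb read 23.2 and 21.6 against 0.548 and 0.741 (-3.83 ± 0.16). Afp lies on the + strand (chr5:90490464-90490713) and Fgb on the - strand (chr3:83049864-83050113). Both are written 5′ to 3′ along the gene, and capitals mark the match, at -105 to -100 in Afp and, on the opposite strand, at -29 to -24 in Fgb.
Afp: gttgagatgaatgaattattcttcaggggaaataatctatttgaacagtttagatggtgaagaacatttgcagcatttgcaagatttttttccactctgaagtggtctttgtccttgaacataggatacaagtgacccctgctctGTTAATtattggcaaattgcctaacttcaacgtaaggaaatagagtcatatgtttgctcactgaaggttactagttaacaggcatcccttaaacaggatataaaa
Fgb: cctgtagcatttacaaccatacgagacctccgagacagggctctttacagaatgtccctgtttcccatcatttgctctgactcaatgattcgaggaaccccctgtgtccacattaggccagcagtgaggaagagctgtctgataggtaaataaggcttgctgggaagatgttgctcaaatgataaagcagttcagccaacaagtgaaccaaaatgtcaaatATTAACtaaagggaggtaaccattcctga
A match is a run of letters and no measure of binding.

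Endoderm factors were often lower in 1343KO, and many had been so on day 0. Of 10 endoderm factors 6 were lower in 1343KO day 16 and 1 higher (median -1.14), but 6 were also lower on day 0, and after adjusting 1 was lower and 1 higher. Hnf4a, a nuclear receptor that drives apolipoprotein genes, read 18.4 and 18.1 against 1.18 and 2.59 (-2.78 ± 0.24) and was the one still lower after adjusting (-2.01 ± 0.33). Gata4, a zinc finger factor of endoderm and heart, read 64.3 and 55.1 against 11.7 and 13.7 (-2.15 ± 0.18). In ES cells it read 19.4 and 23.8 in WT and 3.25 and 2.04 in 1343KO, and its adjusted change of 0.50 ± 0.26 was not called (adjusted p = 0.192). Foxa2, a pioneer factor of endoderm, read 16.0 and 11.8 against 7.32 and 6.88 (-0.87 ± 0.22). Its call is lost without WT day 8 replicate 1 (adjusted p = 0.0844) or without 1343KO day 16 replicate 2 (adjusted p = 0.0528). The factor that was higher is Cer1, a secreted inhibitor of Nodal and BMP made by anterior endoderm, at 0.526 and 0.105 against 13.2 and 13.7 (3.48 ± 0.21).

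Visceral endoderm takes up protein through the receptor pair of cubilin and amnionless. Cubn read 35.0 and 37.4 against 0.610 and 0.871 (-4.42 ± 0.12, adjusted -1.67 ± 0.17). Amn read 42.2 and 43.0 against 0.799 and 0.651 (-4.66 ± 0.35, adjusted -3.08 ± 0.50). Dab2, an adaptor of that uptake, read 271 and 275 against 11 and 14.9 (-4.31 ± 0.12, adjusted -1.34 ± 0.17). All 3 were lower in 1343KO on day 0 too, and all 3 were called lower after adjusting for that. Col4a2, a chain of basement membrane collagen that lies on chromosome 8, read 135 and 138 against 41.0 and 38.5 (-1.76 ± 0.07). From day 0 it rose in 1343KO by more than in WT, with an adjusted change of 0.49 ± 0.10 (adjusted p = 0.00873). Of the 11 genes of endocytosis and basement membrane, 9 were lower and 1 higher (median -1.52), against 5 lower and 3 higher after adjusting. The 1 higher gene, Lama1, lost its call without WT day 8 replicate 1, without WT day 8 replicate 2, without 1343KO day 16 replicate 2, with the 4 libraries alone and under both other scalings.

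**Figure D2:**
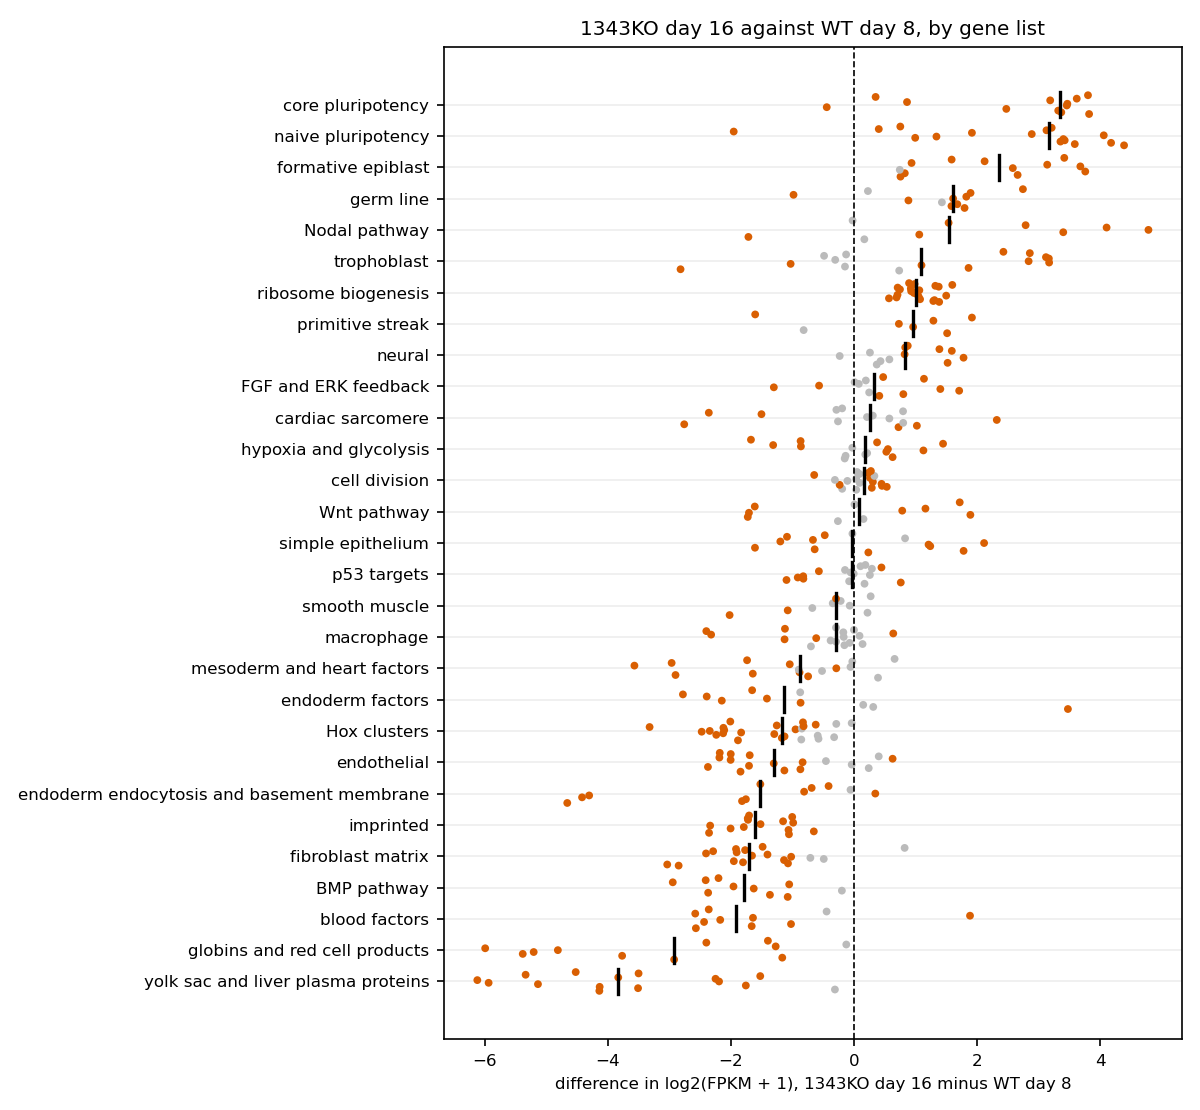
Difference in log2(FPKM + 1), 1343KO day 16 minus WT day 8, for each tested member of 29 gene lists (points; orange where called at an adjusted p under 0.05, grey otherwise), with the list median as a black bar. The medians run from -3.83 for plasma proteins and -2.92 for globins to 3.17 for naive and 3.35 for core pluripotency genes.

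Red blood cell genes made the other large gap. Of 11 tested, 10 were lower in 1343KO day 16 and none higher (median -2.92), and 8 were lower after adjusting. Hbb-bh1, the embryonic beta-like globin (ENSMUSG00000052217, chr7:103841637-103843164, GRCm38), read 759.6 and 844 against 7.49 and 17.6 (-6.00 ± 0.41, adjusted p = 6.38e-06). Hba-x, the embryonic alpha-like globin, read 257 and 290.1 against 9.51 and 8.03 (-4.81 ± 0.36). Hba-a1, an alpha-globin, read 99.2 and 99.0 against 1.98 and 0.925 (-5.39 ± 0.29). Reads of Hba-a1 and its near-identical copy Hba-a2 cannot be split with certainty, and Hba-a2 gave a difference of the same kind, -5.21 ± 0.44. Within 1343KO, Hba-x rose between day 8 and day 16, from 1.18 and 0.774 (2.31 ± 0.36, adjusted p = 0.0225). Hbb-bh1 read 3.25 and 1.22 on day 8 of that line and its rise was not called (2.03 ± 0.41, adjusted p = 0.0706). The summed level of the list was 1250 to 1370 in WT day 8, 67.5 to 99.4 in WT day 16 and 29.0 to 32.9 in 1343KO day 16, so day 8 was the highest of the 3 WT days sampled.

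Of the 9 red cell genes with a RefSeq promoter, 8 held AGATAA or TGATAA, letters that GATA factors bind, within 250 bases before the start on either strand, against 16.6% of all promoters. Genes and promoters were counted as above, and the near-identical copies Hba-a1 and Hba-a2 are both among the 8. The sequence CCACACCC, also searched, was in 1 of the 9, against 3.2%. Those of Hba-x (+ strand, chr11:32276350-32276599), of Hbb-y, another embryonic beta-like globin (- strand, chr7:103853208-103853457), and of Alas2, the first enzyme of heme synthesis in red cells (+ strand, chrX:150547167-150547416), are shown as members that were low together. The match is in capitals, at -108 to -103, -162 to -157 and -86 to -81.
Hba-x: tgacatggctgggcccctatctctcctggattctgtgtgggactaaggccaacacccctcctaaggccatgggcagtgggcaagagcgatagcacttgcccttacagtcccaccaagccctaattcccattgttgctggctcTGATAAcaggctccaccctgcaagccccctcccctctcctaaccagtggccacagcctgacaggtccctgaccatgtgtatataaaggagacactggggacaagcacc
Hbb-y: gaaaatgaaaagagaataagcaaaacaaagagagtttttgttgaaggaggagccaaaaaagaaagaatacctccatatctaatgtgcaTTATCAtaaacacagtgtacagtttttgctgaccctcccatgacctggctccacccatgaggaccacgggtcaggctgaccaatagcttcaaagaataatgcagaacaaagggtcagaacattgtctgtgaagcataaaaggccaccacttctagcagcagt
Alas2: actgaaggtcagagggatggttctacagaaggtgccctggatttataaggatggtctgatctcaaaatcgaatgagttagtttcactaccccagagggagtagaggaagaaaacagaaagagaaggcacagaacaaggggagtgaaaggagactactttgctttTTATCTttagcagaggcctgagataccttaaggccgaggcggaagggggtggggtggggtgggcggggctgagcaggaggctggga
In Hbb-y and Alas2 the match is on the opposite strand. Hbb-y read 14 and 18.6 against 2.83 and 1.75 (-2.40 ± 0.41) and Alas2 9.48 and 8.55 against 0.460 and 0.191 (-2.92 ± 0.35).

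Blood factors were low as well. Of 10 tested, 8 were lower and 1 higher (median -1.92), and the same 8 were lower after adjusting, with 2 higher. Gata1, the master factor of red cells, read 6.68 and 5.56 against 0.200 and 0.190 (-2.57 ± 0.22). Klf1, an activator of globin genes, read 5.35 and 7.0 against 0.390 and 0.247 (-2.44 ± 0.23). Tal1, which embryonic blood requires, read 7.14 and 7.20 against 0.532 and 0.652 (-2.36 ± 0.20). None of the 3 was called changed from day 0 in 1343KO, and their shares of the WT change were 0.02, -0.01 and 0.03. The higher gene was Myb, a factor of blood progenitors that other dividing cells also use, at 1.19 and 1.91 against 7.73 and 9.0 (1.89 ± 0.20), which was above all 3 WT days. Runx1, a factor of blood stem cell formation, was not called against WT day 8 (-0.45 ± 0.23, adjusted p = 0.157). It had been lower in 1343KO on day 0 and rose from there, with an adjusted change of 1.47 ± 0.33.

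Macrophage genes were low in both groups. All 17 rose in WT between day 8 and day 16, when their summed level reached 406 to 431, from 34.7 to 39.0 in WT day 8, and it was 13.1 to 13.3 in 1343KO day 16. Against WT day 8, 5 were lower and 1 higher, and 3 were lower with the 4 libraries alone, without WT day 8 replicate 2 or without 1343KO day 16 replicate 2. After adjusting, 3 were lower and none higher. Ptprc (CD45), which defines blood cells, was listed at 0 in all 4 libraries.

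Endothelial genes were lower by less. Of 17 tested, 12 were lower and 1 higher, with a median of -1.30, and 9 were lower and 1 higher after adjusting. Kdr, the VEGF receptor that marks blood and vessel progenitors, read 20.2 and 17.9 against 3.76 and 4.21 (-2.01 ± 0.21) and had risen in 1343KO from 0.243 and 0.887 on day 0. Cdh5, the cadherin of vessel walls, read 20.2 and 18.9 against 4.07 and 5.46 (-1.84 ± 0.17). Flt1, another VEGF receptor, read 12.8 and 12.6 against 6.86 and 6.54 (-0.83 ± 0.14). These 3 rose in 1343KO without reaching WT day 8, whereas Tek, the angiopoietin receptor, and Erg, an endothelial ETS factor, had shares of only 0.06 and 0.07. The gene that was higher is Pecam1 (CD31), which ES cells express too, at 15.3 and 14.4 against 24.1 and 22.9 (0.63 ± 0.11). The median share of the list was 0.41, the same as for all genes that rose in WT.

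Mesoderm and heart factors rose in part. Of 15 tested, 9 were lower in 1343KO day 16 and none higher (median -0.88), 7 after adjusting, and the median share was 0.52. Hand1, a factor of heart and extraembryonic mesoderm, read 154 and 162 against 19 and 21.6 (-2.90 ± 0.17), up from 2.20 and 2.62 in 1343KO on day 0. Tbx20, of heart mesoderm, read 20.8 and 19.8 against 2.07 and 1.43 (-2.96 ± 0.20). Snai2, of the epithelial to mesenchymal transition, read 42.0 and 42.5 against 2.04 and 3.36 (-3.57 ± 0.25). Twist1, of mesenchyme, overlapped between the groups at 7.99 and 8.99 against 7.82 and 8.80 and was not called (-0.03 ± 0.22, adjusted p = 0.946).

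Contractile genes of heart muscle differed from WT day 8 in both directions. Of 14 tested, 3 were higher, 3 lower and 8 not called (median 0.26), and after adjusting 2 were higher and 2 lower. Tnnt2, cardiac troponin T, read 12.4 and 13.2 against 12 and 8.89 and was not called (-0.29 ± 0.26, adjusted p = 0.411). It had been listed at 0 in both 1343KO libraries of day 0 and rose between day 8, 1.42 and 2.09, and day 16 (2.05 ± 0.26, adjusted p = 0.00977). Actc1, cardiac actin, read 7.88 and 9.02 against 13.8 and 15.4 (0.72 ± 0.18) and was above all 3 WT days. Not all of the sarcomere followed. Mybpc3, a myosin binding protein of heart, read 12.2 and 14.8 against 0.871 and 1.43 (-2.76 ± 0.21). Tnni1, a troponin I of embryonic heart, read 48.4 and 49.5 against 9.67 and 7.87 (-2.36 ± 0.31). The median share was 0.83 over the 8 genes that changed at least 2-fold in WT, and the summed level was 132 to 136 in WT day 8 and 80.5 to 90.6 in 1343KO day 16.

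Matrix genes of fibroblasts were mostly lower. Of 18 tested, 15 were lower and none higher (median -1.71), and 12 were lower after adjusting. Col1a2, a chain of type I collagen, read 74.4 and 83.8 against 9.04 and 8.47 (-3.04 ± 0.15). Col1a1, the other chain, read 47.3 and 48.5 against 5.81 and 5.76 (-2.85 ± 0.15). Lum, a proteoglycan of collagen fibres, read 24.9 and 27.2 against 4.54 and 3.69 (-2.41 ± 0.16) and had risen in 1343KO since day 8. WT reached far higher levels by day 16, 937 and 1018 for Col1a1. Acta2, smooth muscle actin, read 138 and 149.7 against 34.1 and 35.3 (-2.02 ± 0.10). Of 9 smooth muscle genes 3 were lower, or 1 without WT day 8 replicate 2, and 5 after adjusting. Among those 5 are Tagln and Myl9, which were higher in 1343KO on day 0.

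BMP genes were lower. BMPs are ligands that pattern mesoderm and start blood, and the Id genes are their direct targets. Of 10 tested, 9 were lower in 1343KO day 16 and none higher (median -1.79), and the same 9 were lower after adjusting. Bmp4 read 54.4 and 57.3 against 10.7 and 9.32 (-2.37 ± 0.19) and was not called changed from its day 0 level of 12.1 and 12.6. Id1 read 111 and 103 against 35.1 and 32.8 (-1.63 ± 0.11), which was lower than in all 3 WT days, with 64.1 and 61.1 in WT ES cells. Id2 read 122 and 120.0 against 32.0 and 28.7 (-1.96 ± 0.11). The ligand and its targets were thus low together in both 1343KO libraries. Msx1, a homeobox target, read 38.2 and 32.1 against 3.63 and 3.73 (-2.95 ± 0.25). Smad6, an inhibitor that is also a target, had a share of 0.10. The member not called was Bmp7, at 6.44 and 5.14 against 4.51 and 5.31 (-0.20 ± 0.22, adjusted p = 0.523).

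Nodal genes went the other way, 6 of 9 higher and 1 lower (median 1.54), and 6 higher and none lower after adjusting. Nodal itself, the ligand that maintains the epiblast and then induces endoderm, read 3.43 and 2.1 against 23.2 and 26.2 (2.79 ± 0.19). Lefty1, its feedback inhibitor (chr1:180935022-180938400, GRCm38), read 2.20 and 2.63 against 88.6 and 98.0 (4.79 ± 0.15, adjusted p = 9.00e-08) and led the named genes higher in 1343KO. Lefty2, a second inhibitor, read 2.42 and 3.05 against 62.3 and 64.1 (4.11 ± 0.17). Ligand and inhibitors were high together, and Lefty2 exceeded WT ES cells too, at 33.3 and 29.6. Foxh1, the nuclear partner of Nodal signalling, read 20 and 19.9 against 42.1 and 43.4 (1.06 ± 0.12) and was above all 3 WT days. Tdgf1, the Nodal co-receptor of ES cells, read 12.8 and 13.2 against 169.7 and 173 (3.62 ± 0.06). Cfc1, its relative in mesoderm, was the lower gene, at 20.7 and 25.3 against 4.52 and 8.54 (-1.72 ± 0.34).

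Wnt and FGF genes moved in both directions. In the Wnt list 4 of 10 were higher and 3 lower, and 3 and 3 after adjusting. Nkd1, a feedback inhibitor, read 10.3 and 11.3 against 2.93 and 2.23 (-1.73 ± 0.24), and Notum, an enzyme that inactivates Wnt, 0.448 and 0.418 against 4.91 and 3.79 (1.89 ± 0.24). In the FGF list 6 of 12 were higher and 2 lower, or 1 lower without WT day 8 replicate 1, and after adjusting 5 were higher and 2 lower. Etv5, a target of ERK signalling, read 23.4 and 27.2 against 84.0 and 85.7 (1.71 ± 0.08) and was not called changed from 1343KO day 0, 81.6 and 83.5. Its relative Etv4 fell in both lines from day 0, at 7.14 and 5.68 against 8.76 and 6.85, and was not called between them (0.25 ± 0.18, adjusted p = 0.326).

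Pluripotency genes were high in 1343KO day 16. Of 12 core genes 11 were higher than in WT day 8 and 1 lower (median 3.35), and of 16 naive genes 15 were higher and 1 lower (median 3.17). After adjusting, 10 and 15 were higher and 1 of each list lower. Pou5f1 read 35.6 and 36.2 against 419 and 397 (3.47 ± 0.09, adjusted p = 3.37e-08), down from 851 and 801 in 1343KO ES cells. Sox2 read 18.5 and 19.5 against 172 and 191 (3.19 ± 0.08), beside 188 and 187 on day 0. Nanog read 12.9 and 12.3 against 139 and 158 (3.46 ± 0.08), beside 206 and 210.0. The 3 differed in how far they had gone along the WT course, with shares of 0.23 for Pou5f1, 0.01 for Sox2 and 0.14 for Nanog. The core gene that was lower is Lin28a, an RNA binding protein, at 177 and 177 against 133 and 127 (-0.44 ± 0.06).

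Among naive factors, Esrrb, an orphan nuclear receptor, read 2.62 and 3.74 against 74.8 and 73.5 (4.18 ± 0.12). Nr0b1, another orphan receptor, read 0.418 and 1.00 against 25.9 and 28.4 (4.06 ± 0.26). Zfp42 (Rex1), a classic ES cell marker, read 6.08 and 7.77 against 72.1 and 72.2 (3.21 ± 0.11). Members of 1 family parted here. Klf2 read 6.59 and 7.61 against 86.7 and 82.6 (3.40 ± 0.11) and stood above all 3 WT days. Klf4 read 6.45 and 4.81 against 12.3 and 11.9 (1.00 ± 0.15) and had fallen from 99.3 and 94.5 on day 0, a share of 0.82. Tbx3, a factor not called changed in WT by day 8, was the naive gene that was lower, at 27.4 and 27.3 against 6.26 and 6.37 (-1.96 ± 0.14).

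**Figure D3:**
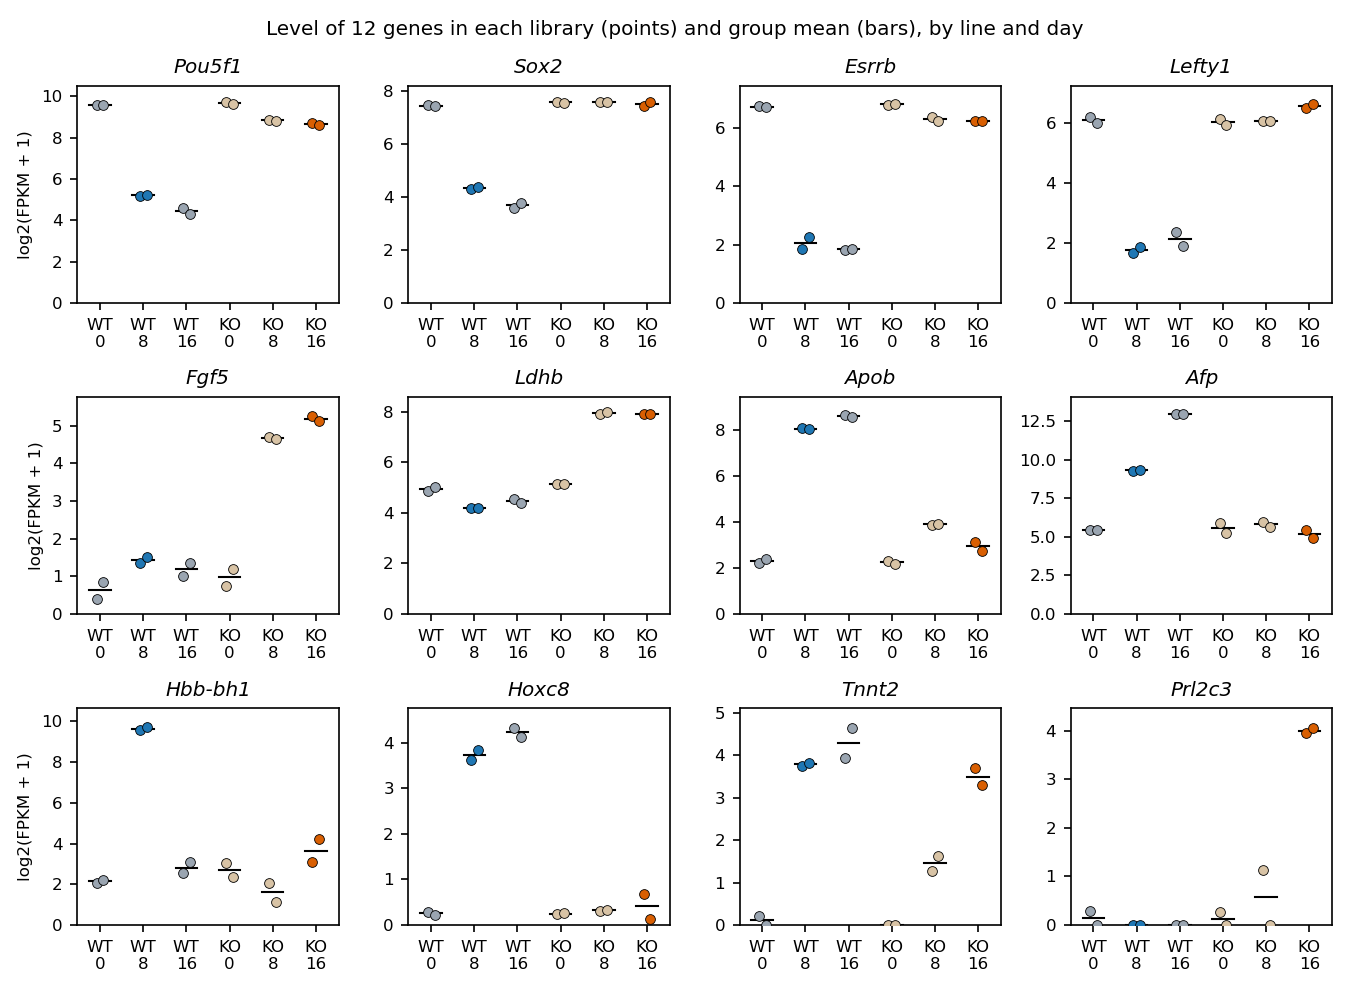
Level of 12 genes as log2(FPKM + 1) in each library (points) with the mean of the 2 log values (bars), for WT and 1343KO (KO) on days 0, 8 and 16. Pou5f1, Sox2, Esrrb, Lefty1, Fgf5, Ldhb and Prl2c3 are higher in 1343KO day 16 than in WT day 8, Apob, Afp, Hbb-bh1 and Hoxc8 are lower, and Tnnt2 was not called.

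Formative genes, which mark the step between the naive state and lineage choice, were higher in 11 of 12 cases and lower in none (median 2.35), with 10 higher after adjusting and 9 above all 3 WT days. In 1343KO 9 of the 12 rose from day 0 to day 16. Fgf5, the classic epiblast ligand (chr5:98254184-98277030, GRCm38), read 1.54 and 1.85 against 36.9 and 34.1 (3.76 ± 0.22), up from 0.680 and 1.30 in 1343KO on day 0. Otx2, a factor that opens epiblast enhancers, read 11.3 and 10.2 against 66.6 and 72.6 (2.58 ± 0.23). Dnmt3b, the de novo DNA methyltransferase of the epiblast, read 19.6 and 19.4 against 124 and 134 (2.66 ± 0.07). In all 3 both 1343KO libraries lay above all 6 WT libraries, although a WT peak between the sampled days would not be seen. Zic2, a zinc finger factor, read 2.69 and 2.68 against 34.2 and 43.2 (3.42 ± 0.16). Pim2, a kinase gene, read 5.76 and 6.33 against 91.7 and 86.9 (3.68 ± 0.12) and was already higher on day 0, at 27.5 and 28 in 1343KO beside 13.1 and 11.4 in WT.

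Primitive streak genes were low in level and mostly above WT. Of 12 listed, 7 passed the filter of at least 1 FPKM in at least 2 libraries. Of these 5 were higher in 1343KO day 16 and 1 lower (median 0.96), and the same 5 were above all 3 WT days. After adjusting 4 were higher and 1 lower. T (brachyury), which defines the streak, read 1.00 and 1.35 against 7.31 and 7.08 (1.92 ± 0.20). Eomes, of the anterior streak, read 1.91 and 3.20 against 9.28 and 8.70 (1.51 ± 0.23). Lhx1, of anterior mesendoderm, read 1.12 and 2.51 against 5.65 and 5.72 (1.29 ± 0.24). Both 1343KO libraries were above both WT libraries in each. Lhx1 lost its call in the fit on the 4 compared libraries alone (adjusted p = 0.0507). The list had 3 higher genes in that fit, with a pseudocount of 0.1, without WT day 8 replicate 1 and without 1343KO day 16 replicate 1. Gsc, an organizer factor, read 1.1 and 1.3 against 2.80 and 2.34 (0.73 ± 0.19), and lost its call in 3 of 20 alternative fits. Fgf8, a streak ligand, read 5.10 and 7.43 against 10.8 and 15.5 (0.96 ± 0.33, adjusted p = 0.0412). Its call was lost in 15 of 20 alternative fits, among them both other scalings and no filter, with an adjusted p of up to 0.214, without 1343KO day 16 replicate 2. Wnt3, which helps start the streak, was the lower gene, at 3.60 and 3.20 against 0.346 and 0.550 (-1.61 ± 0.19).

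Trophoblast, the outer layer that builds the placenta, gave another group above WT. Of 15 tested genes 8 were higher, 7 after adjusting, and the same 8 were above all 3 WT days. Lower were 2, also after adjusting, or 1 without WT day 8 replicate 1 or without 1343KO day 16 replicate 2, and 4 under both other scalings. Prl3d1, a placental lactogen of giant cells, read 0.114 and 0 against 7.55 and 5.67 (2.84 ± 0.23). Prl2c3, a prolactin family hormone outside the list, read 14.5 and 15.6 in 1343KO day 16 and was listed at 0 in all 4 WT libraries of days 8 and 16. Prl2a1, another one, read 0 and 0.780 against 19.9 and 16.4 (3.84 ± 0.50) and had risen in 1343KO from 0.398 and 3.66 on day 8 (2.90 ± 0.50, adjusted p = 0.0359). Prl2c3 and Prl3d1 passed the filter only through the 1343KO libraries in which they are high, so they had to differ. Prl3d1 is among the 8 higher genes of the list, and members of this kind were not counted apart. Reads of Prl2c3 and its near-identical copy Prl2c2 cannot be split with certainty. Ctsj, a placental cathepsin, read 0.393 and 0.312 against 19.3 and 15.9 (3.78 ± 0.26). Rhox6, an X-linked homeobox gene of placenta and germ cells whose family has close copies, read 5.17 and 4.06 against 48.2 and 50.2 (3.17 ± 0.14). Tfap2c, a factor that naive ES cells share with trophoblast, read 3.98 and 3.63 against 34.6 and 33.1 (2.86 ± 0.15). Cdx2, the factor that defines trophoblast stem cells and also marks hind mesoderm, was lower at 12.8 and 16.2 against 1.47 and 0.933 (-2.82 ± 0.28). Elf5, the other stem cell factor of the list, did not pass the filter.

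Hox genes, which give cells a position along the body axis, were low in 1343KO. Of 39, 25 passed the filter. Of these, 18 were lower in 1343KO day 16 and none higher (median -1.17), and 12 were lower after adjusting. The 1343KO day 16 libraries listed 11 and 13 of the 39 at 0. A member that passed the filter only through WT day 8 had to be lower, so the direction of this count is partly set by the filter. Hoxc8 read 11.3 and 13.4 against 0.612 and 0.0970 (-3.32 ± 0.21). Hoxb4 read 7.24 and 8.59 against 1.06 and 1.01 (-2.13 ± 0.25). From day 0, 16 rose in WT by day 8, while 1 rose and 3 fell in 1343KO by day 16. The summed level of the 39 genes was 90.1 to 90.9 in WT day 8, 11.6 to 12.7 in 1343KO day 16 and 16.6 to 16.9 in 1343KO ES cells.

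All 14 imprinted genes of the list were lower in 1343KO day 16 (median -1.61) and all 14 after adjusting. Such genes are read from 1 parental copy, and many steer fetal growth. Igf2, a fetal growth factor, read 1728 and 1759 against 434 and 433 (-2.01 ± 0.11). H19, its noncoding neighbour, read 460.0 and 449 against 218 and 216 (-1.06 ± 0.09). Both had risen far from day 0 in 1343KO, with shares of 0.59 and 0.76. Meg3, a noncoding RNA of the Dlk1 region on chromosome 12, read 562 and 614 against 122 and 109 (-2.34 ± 0.08), with a share of 0.12. Rian, another one of that region, read 686 and 651 against 209 and 199.8 (-1.71 ± 0.08) and was not called changed from day 0 in 1343KO. Dlk1 itself read 304 and 324 against 58.2 and 62.9 (-2.36 ± 0.19), with a share of 0.51. In 1343KO 6 of the 14 rose between day 8 and day 16.

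Genes of ribosome production were all higher, 22 of 22 (median 1.02), and 19 after adjusting. In WT all 22 fell from day 0 to day 8, and in 1343KO 16 fell by day 16, with a median share of 0.28 over 17 genes. Ncl, nucleolin, read 212 and 226 against 453 and 456 (1.05 ± 0.05). Npm1, nucleophosmin, read 919 and 938 against 1612 and 1509 (0.75 ± 0.05). Dkc1, the pseudouridine synthase of box H/ACA snoRNA particles, read 33.2 and 35.9 against 88.6 and 85.3 (1.31 ± 0.08). Cell division genes differed little, with 9 of 20 higher and 2 lower (median 0.16), and 5 higher and 1 lower after adjusting. Unadjusted, the higher count was 3 under both other scalings and with the 4 libraries alone, 4 without WT day 8 replicate 1 and 5 without 1343KO day 16 replicate 2. Mki67, the proliferation antigen, was lower, at 51.2 and 54.5 against 34.1 and 32.6 (-0.65 ± 0.08).

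In other lists the directions were mixed. Germ line genes were higher in 8 of 11 cases and lower in 1 (median 1.61), the lower call being lost without any 1 of the 4 libraries, and 6 were higher and 1 lower after adjusting. Tex19.1, a guard against retrotransposons, read 3.05 and 2.40 against 25.6 and 22.4 (2.75 ± 0.18). Epithelial genes were higher in 5 of 13 cases and lower in 6, or 3 and 5 after adjusting. Krt18, a keratin of simple epithelia, read 387 and 391 against 159.7 and 179 (-1.20 ± 0.09), while Epcam, an adhesion protein of ES cells and epithelia, read 49.3 and 52.0 against 126 and 116 (1.24 ± 0.08). Of 12 neural genes 7 were higher and none lower, and 4 were higher after adjusting, at a summed level of 33.2 to 33.6 in 1343KO day 16 beside 12.3 to 13.2 in WT day 8 and 39.7 to 40.2 in 1343KO ES cells. Of 15 genes of glycolysis and the hypoxia response 6 were higher and 4 lower, and 8 and 3 after adjusting. Pdk1, a kinase that keeps pyruvate out of mitochondria, read 29.5 and 34.7 against 87.2 and 90.8 (1.45 ± 0.11). Vegfa, the vessel growth factor, was lower at 84.1 and 77 against 25.2 and 23.9 (-1.67 ± 0.11). Of 16 p53 targets 2 were higher and 5 lower, the higher count being 1 without WT day 8 replicate 1, without 1343KO day 16 replicate 2, with the 4 libraries alone and under both other scalings. After adjusting for day 0, when 4 of them were higher in 1343KO, none was higher and 7 were lower. Cdkn1a (p21), a p53 target that halts the cell cycle, read 67.1 and 71.5 against 32.1 and 40.9 (-0.91 ± 0.13).

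Shares of the WT day 8 change were uneven between gene groups. The medians were 0.06 for blood factors (8 genes), 0.09 for plasma proteins (14) and for red cell genes (10), 0.14 for core pluripotency (9), and 0.18 for Hox genes (15) and naive pluripotency (14). BMP genes stood at 0.31 (9), fibroblast matrix at 0.36 (15), endothelium at 0.41 (14) and mesoderm factors at 0.52 (13). Heart sarcomere at 0.83 (8), endoderm factors at 1.09 (5) and primitive streak at 1.40 (5) came highest among the lists named here, the latter pair on few genes. Endoderm factors had started low in 1343KO, so a share of 1 there was a like rise from a lower base. The spread within a list was wide too, from -0.26 to 0.82 among naive factors, with Klf2 at -0.25 and Klf4 at 0.82. Differences between lists were not tested, and WT was sampled on no day between 0 and 8.

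**Figure D4:**
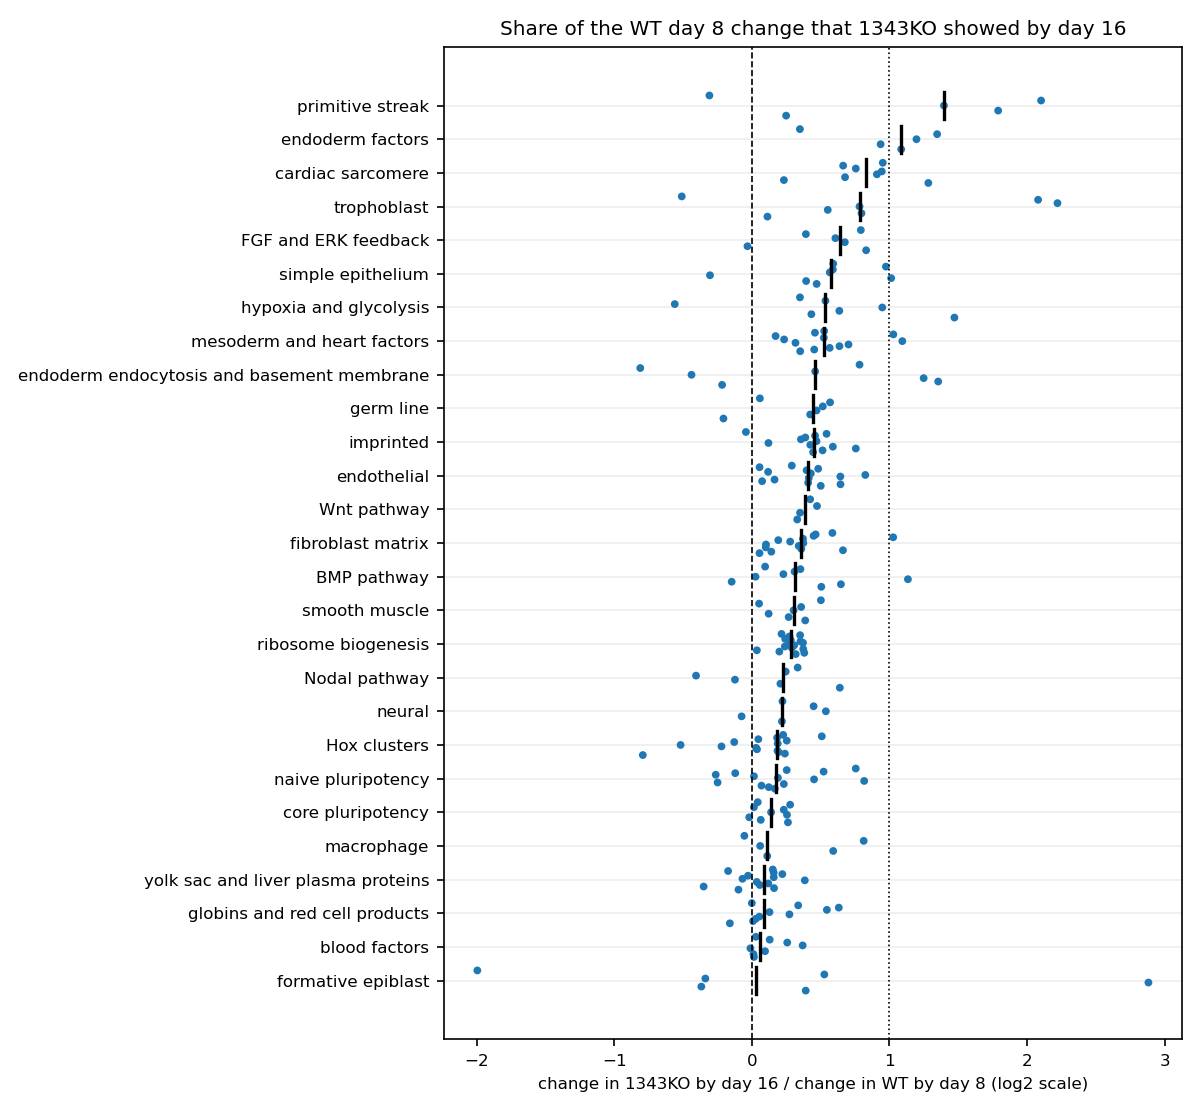
Change of 1343KO from day 0 to day 16 divided by the change of WT from day 0 to day 8 (log2 scale), for members of each list that changed at least 2-fold in WT (points), with the list median as a bar, in lists with at least 4 such genes. Lines mark 0 (no change) and 1 (the full WT change). Medians run from 0.03 for formative genes and 0.06 for blood factors to 1.40 for primitive streak. The 6 formative genes spread from -2.0 to 2.88, with 3 below 0, so their median does not stand for little change.

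Whether 1343KO day 16 stayed within the range of the sampled WT days was read from 3 comparisons, with WT day 0, day 8 and day 16, which share the 1343KO libraries. Calls numbered 4555 with WT day 0 (28.0%; 18.5% higher, 9.47% lower) and 8570 with WT day 16 (52.6%; 28.5% higher, 24.1% lower). Called higher than all 3 were 647 genes (3.97%), of which 585 were not called between the lines on day 0. At least 2-fold higher in each were 173 of these 585. Called lower than all 3 were 193 genes (1.18%), or 121 without WT day 0 replicate 2 and 120 without 1343KO day 16 replicate 2, and 122 of the 193 were not called on day 0. Chromosome 8 held 46 of the 193, 23.8% against 4.78% of tested genes, and 9 of the 647. Median-of-ratios scaling gave 438 genes above and 297 below, and TPM scaling 460 above and 245 below. The balance between the 2 sides thus rests partly on the scaling.

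Gkn2, a gastrokine known from stomach lining (chr6:87373357-87379497, GRCm38), led the named genes above all WT days. It read 21.8 and 25.9 in 1343KO day 16, 4.50 and 3.97 in 1343KO day 8, 0 and 0.312 in WT day 8 and 4.88 and 3.14 in WT day 16. Ldhb, a lactate dehydrogenase subunit of oxidative tissues, read 17.1 and 17.3 against 242 and 239 (3.73 ± 0.08, adjusted p = 1.62e-08). Its 1343KO level was reached by day 8, 244 and 253, from 34.0 and 34.2 on day 0, while the 6 WT libraries lay between 17.1 and 31.7. Tdrd12, of the germ line piRNA pathway, read 1.39 and 0.889 against 22.7 and 24.9 (3.54 ± 0.42). Trh, the precursor of thyrotropin releasing hormone, read 15.1 and 17.6 against 291 and 269 (4.02 ± 0.09). It also exceeded WT ES cells, 121 and 116, where 1343KO was the lower line at 79.0 and 81.0. Dppa3 (Stella), of naive and germ cells, read 6.61 and 3.42 against 122 and 119 (4.39 ± 0.33), and it was higher in 1343KO on day 0 as well, 38.2 and 35.4 beside 11.3 and 8.62 in WT.

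Genes below all WT days and not called on day 0 included plasma proteins. Apoa2, an apolipoprotein, read 185 and 184 against 9.92 and 9.23 (-4.13 ± 0.21), with 17.8 and 20.9 in WT ES cells. Trf, transferrin, read 82.1 and 107 against 9.53 and 5.64 (-3.50 ± 0.23), with 15.8 and 11.6. Dpp4, a surface peptidase, read 38.2 and 32.4 against 2.16 and 1.93 (-3.57 ± 0.16), with 3.30 and 3.53. In these 3 both 1343KO libraries lay under the WT ES cells as well as under the embryoid bodies of both WT days. Bmp6, a BMP ligand, read 9.69 and 8.60 against 0.584 and 0.789 (-2.59 ± 0.33), and Cavin1, a coat protein of caveolae, read 23.9 and 25.8 against 5.17 and 6.37 (-1.94 ± 0.13).

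**Figure D5:**
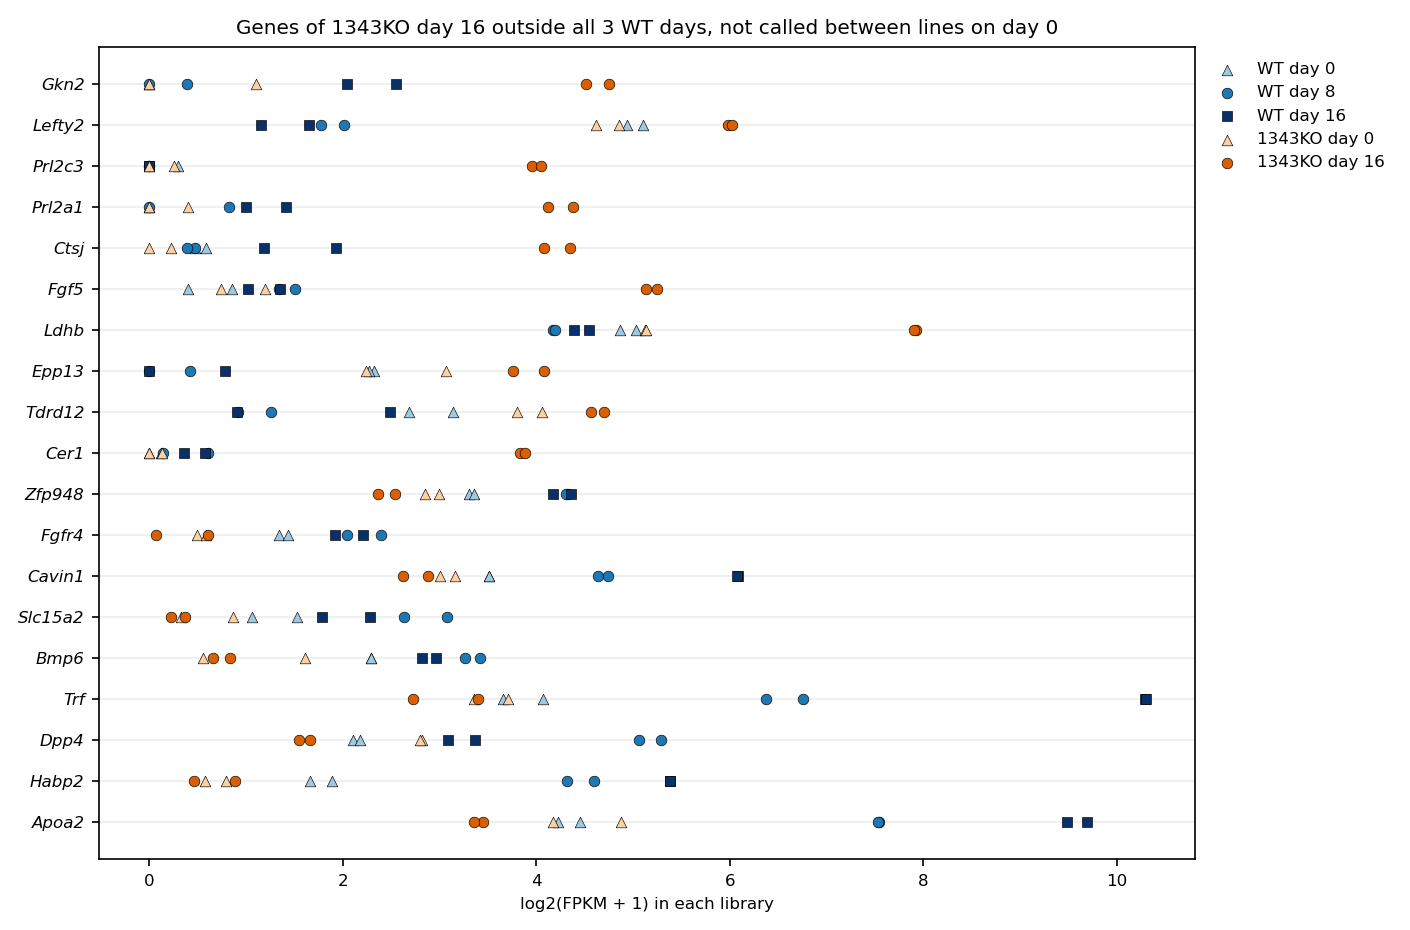
Level as log2(FPKM + 1) in each library of WT days 0, 8 and 16 and 1343KO days 0 and 16, for the 10 genes above all 3 WT days, and 9 of the 10 genes below, with the largest differences from WT day 8 among genes not called between the lines on day 0. Orange circles (1343KO day 16) lie to the right of every WT symbol in the upper 10 rows, as for Ldhb with 242 and 239 FPKM, and to the left in the lower 9.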

How the data were processed

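RNA of 2 mouse ES cell lines was sequenced on 3 days of differentiation, with 2 libraries in each of 6 groups. The authors deposited 1 table of FPKM values for 54537 genes, made with Cufflinks 2.1.1 on GRCm38 (mm10), per the submitters' processing notes. No source used here names the aligner or the annotation. FPKM are no counts, so no count model was run. Whole-fragment steps in the low values (86.1% to 89.0% of 1 to 3 fragment values within 5%, assuming fragments of 200 nt and transcripts of at least 1500 nt) gave an approximate depth of 4820000 to 7920000 fragments per library, and this depth only limits how finely low genes can be read.

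Tested were 16289 genes, those that reached 1 FPKM in 2 or more libraries. A gene that passed only through the WT day 8 libraries had to be lower in 1343KO day 16, and a gene that passed only through 1343KO day 16 had to be higher. Such genes were not counted apart in the lists. limma 3.58.1 (R 4.3.3) was fitted to log2(FPKM + 1) with 1 mean for each of the 6 groups and a mean-variance trend (6 residual degrees of freedom), and p-values were adjusted by Benjamini-Hochberg over all tested genes, with calls under 0.05. On simulated data with 200 changed genes of 16289, the fit recovered 74% of 2-fold and 95% of 4-fold changes in the main comparison, with 7.7% of calls false, and 41% and 87% in the baseline-adjusted one, with 9.9% false. Both false shares were above the 0.05 threshold. The changed genes were drawn only from those above a minimum WT day 8 level, with normal noise, so recovery among lower genes was not simulated. A share is the change of 1343KO from day 0 to day 16 divided by that of WT from day 0 to day 8, for genes called in WT with a change of at least 1 on the log2 scale.

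The gene groups are 33 lists of 464 genes, 460 of them in the table and 419 tested; Ahsp, Foxf1, Foxc2 and Tubb3 were not analysed here. The comparison, its members and these lists were chosen with earlier results of these data known, so counts over a list describe it and carry no test. Named by rule were the up to 5 called members of each list with the smallest p and its highest member, 20 fixed markers, the 10 largest changes in each direction, the 10 largest on each side of all WT days, and the locus genes; 1 gene that the rule names is not reported here. Named outside the rule, after their values were seen, were Actc1, Alas2, Amn, Bmp7, Cdx2, Cfc1, Dlk1, Etv4, Fgb, Flt1, H19, Hbb-y, Lama1, Lin28a, Myl9, Otx2, Pecam1, Ptprc, Runx1, Tagln, Tbx3 and Twist1. Promoters came from RefSeq (GRCm38.p6), which held 313 of 438 member genes, and were searched over 250 bases. The sequences searched were those of GATA, CACCC, HNF1, octamer, nuclear receptor and HNF4 sites. The octamer ATGCAAAT was in 0 of 9 core and 1 of 10 naive pluripotency genes with a promoter, against 1.6% of all promoters. The nuclear receptor sequence TCAAGGTCA was in 0 of these 9 and 0 of these 10 genes, against 0.387% of all promoters. Python 3.11.15, pandas 2.3.3 and numpy 2.4.6 were used for the summaries and matplotlib 3.10.9 for the figures. Alternatives tried were other pseudocounts, filters and scalings, a replicate term, robust moderation, genes without chromosomes 8 and Y, only the 4 libraries compared, and each library left out in turn.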

Additional observations from a re-analysis of the deposited data

Results flagged for a closer look

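The change from day 0 differed between the lines for 4267 of 16289 genes, by the interaction term in limma (baseline-adjusted change, adjusted p under 0.05), 2504 of them higher and 1763 lower in 1343KO. Median-of-ratios scaling gave 1936 higher and 2090 lower, and TPM scaling 1865 higher and 2033 lower, so the balance of directions rests on the scaling. The term sets the change to day 16 in 1343KO beside the change to day 8 in WT, so line and day differ together in it. Between the lines on day 8 itself 6973 genes were called, and between day 8 and day 16 of 1343KO 131.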

How the results depend on the processing

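Of 191 genes named by rule 187 were called, 171 of them in every setting in which they were fitted (up to 21), and none reversed. The rule mostly picks called genes with small p or large changes, so this count does not measure how stable calls are in general. Genes named outside the rule, such as Lama1, are not in this count. With only genes of at least 5 FPKM on average, the genes above all WT days numbered 430 and the median share was 0.37. Median-of-ratios scaling gave 438 genes above and 297 below all WT days and a share of 0.358. TPM scaling gave 460 above, 245 below and a share of 0.363. The share was 0.368 with a pseudocount of 0.1 and 0.348 with a WT change of at least 2 on the log2 scale. Asking for a change of at least 1 on the log2 scale left 2682 calls in the comparison and 2324 in the baseline-adjusted one. Leaving out 1 library at a time gave 5010 to 6679 calls in the comparison (higher 2895 to 3879, lower 2115 to 2800), 3237 to 4152 baseline-adjusted (higher 1916 to 2440, lower 1304 to 1712), 566 to 824 genes outside all WT days (above 445 to 639, below 120 to 192) and a share of 0.339 to 0.36. The replicate numbers pair nothing: deviations of same-numbered libraries correlated at -0.036 to 0.036 over 15 pairs of groups, and with the replicate block 6602 genes were called, 4145 baseline-adjusted and 804 outside all WT days. The fit on the 4 libraries alone called 5559 and could not give a baseline-adjusted change. The cause of these shifts was not tested. At this depth genes near 1 FPKM rest on few fragments, and 17 of 6620 well expressed genes are listed at 0 in some library, which FPKM cannot tell from a failed estimate.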
